A study of Mus musculus with 32 samples.

Results

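The core genes of the circadian clock were followed through 28 d of muscle denervation. The set held 10 genes of the 33397 in the expression table, chosen by symbol: Arntl (the gene of BMAL1), Clock, Per1, Per2, Per3, Cry1, Nr1d1, Nr1d2, Dbp and Tef. The rule itself uses no measured value, and all 10 genes passed the filter on low values. RNA was sequenced from gastrocnemius (GAS) muscles, the large muscles of the calf, of C57BL/6 mice after sciatic nerve transection, with 4 samples at each of 0, 1, 3, 5, 7, 14, 21 and 28 d and 32 samples in all. Per the study's methods the mice were male C57BL/6J, aged 6 to 8 weeks, and lost a short section of the left sciatic nerve under isoflurane, with buprenorphine given against pain. The 0 d samples served as the nondenervated control here, although their labels list the transection as well. In the study's account its control was a sham group, operated on without cutting the nerve. No sham samples of 1 d or later were analysed here, so time since surgery and time since loss of the nerve cannot be told apart. The mice lived in a light/dark cycle, and the hour at which each muscle was taken is not given in the sources used here, so day post denervation and hour of sampling cannot be told apart in any comparison below.

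The clock is a loop of transcription and repression that runs in nearly every cell, muscle fibres included. BMAL1 and CLOCK bind E-boxes as a pair and switch on the Per and Cry genes, whose proteins return to block the pair. The same pair drives Nr1d1 and Nr1d2, which encode REV-ERB repressors of Arntl, and Dbp, whose protein acts with TEF and HLF at D-boxes, so that over a day Arntl peaks when Dbp is low.

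The promoters of the set are shown because each arm of this loop has its own short DNA element. RefSeq windows from 250 bases before to 50 bases after an annotated start (build GRCm38.p6) were at hand for 9 of the 10 genes (all but Per2), in 14 windows. They were searched on both strands for the E-box CACGTG, the E'-box CACGTT, the D-box TTATGTAA or TTACGTAA, and the RORE, read as AANT followed by AGGTCA or GGGTCA, the element shared by ROR activators and REV-ERB repressors. Positions count from 0 at the first transcribed base, and capitals mark the matches. The RORE match of Arntl lay from 27 to 36 behind its second start. This motif was in 0.435% of the 32851 windows of all genes. Per3 carried D-boxes from -205 to -198 and from -158 to -151, a motif in 1.06% of all windows. Per1 carried an E-box from -166 to -161 and Cry1 an E-box from -60 to -55 beside an E'-box from -79 to -74. E-boxes were in 7.15% and E'-boxes in 4.68% of all windows. Nr1d1 carried an E'-box from -28 to -23, and the AACGTG printed for it and for Cry1 is CACGTT read on the other strand. Each Tef window held an E-box, from -127 to -122 and from -138 to -133. No match was found in the windows of Clock, Nr1d2 and Dbp, which says only that these letters are not in those windows.
Arntl, start 2, chr7:113207261-113207560, plus strand: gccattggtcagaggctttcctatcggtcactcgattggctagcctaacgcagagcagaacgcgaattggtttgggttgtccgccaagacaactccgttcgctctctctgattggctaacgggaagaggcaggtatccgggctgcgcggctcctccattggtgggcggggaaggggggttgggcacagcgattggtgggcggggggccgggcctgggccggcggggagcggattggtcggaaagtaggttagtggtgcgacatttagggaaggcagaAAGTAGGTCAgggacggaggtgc
Per3, start 1, chr4:151044616-151044915, minus strand: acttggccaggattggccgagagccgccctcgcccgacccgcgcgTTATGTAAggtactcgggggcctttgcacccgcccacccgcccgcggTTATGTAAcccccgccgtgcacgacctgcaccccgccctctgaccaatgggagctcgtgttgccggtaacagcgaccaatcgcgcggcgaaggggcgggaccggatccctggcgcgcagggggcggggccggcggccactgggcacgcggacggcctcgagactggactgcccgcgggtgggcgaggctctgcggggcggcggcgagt
Per1, start 1, chr11:69098699-69098998, plus strand: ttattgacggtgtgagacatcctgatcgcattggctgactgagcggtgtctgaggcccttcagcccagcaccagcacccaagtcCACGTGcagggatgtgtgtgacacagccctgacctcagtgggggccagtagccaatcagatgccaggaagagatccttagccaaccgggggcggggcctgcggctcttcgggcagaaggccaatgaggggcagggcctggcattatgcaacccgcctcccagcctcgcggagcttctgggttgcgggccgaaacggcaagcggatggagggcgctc
Cry1, start 1, chr10:85185005-85185304, minus strand: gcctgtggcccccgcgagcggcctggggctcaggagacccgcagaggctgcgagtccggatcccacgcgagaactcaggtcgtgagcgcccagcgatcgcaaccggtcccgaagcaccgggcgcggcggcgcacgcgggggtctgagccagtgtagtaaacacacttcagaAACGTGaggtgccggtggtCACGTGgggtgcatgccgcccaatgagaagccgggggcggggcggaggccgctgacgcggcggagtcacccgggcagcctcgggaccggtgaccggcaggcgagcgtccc
Nr1d1, start 1, chr11:98775328-98775627, minus strand: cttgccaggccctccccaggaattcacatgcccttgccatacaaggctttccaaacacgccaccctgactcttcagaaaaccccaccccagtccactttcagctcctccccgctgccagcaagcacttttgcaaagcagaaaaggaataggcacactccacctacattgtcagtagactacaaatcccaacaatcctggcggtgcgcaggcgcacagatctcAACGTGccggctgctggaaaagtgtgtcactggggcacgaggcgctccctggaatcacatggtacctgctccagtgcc

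**Figure D1:**
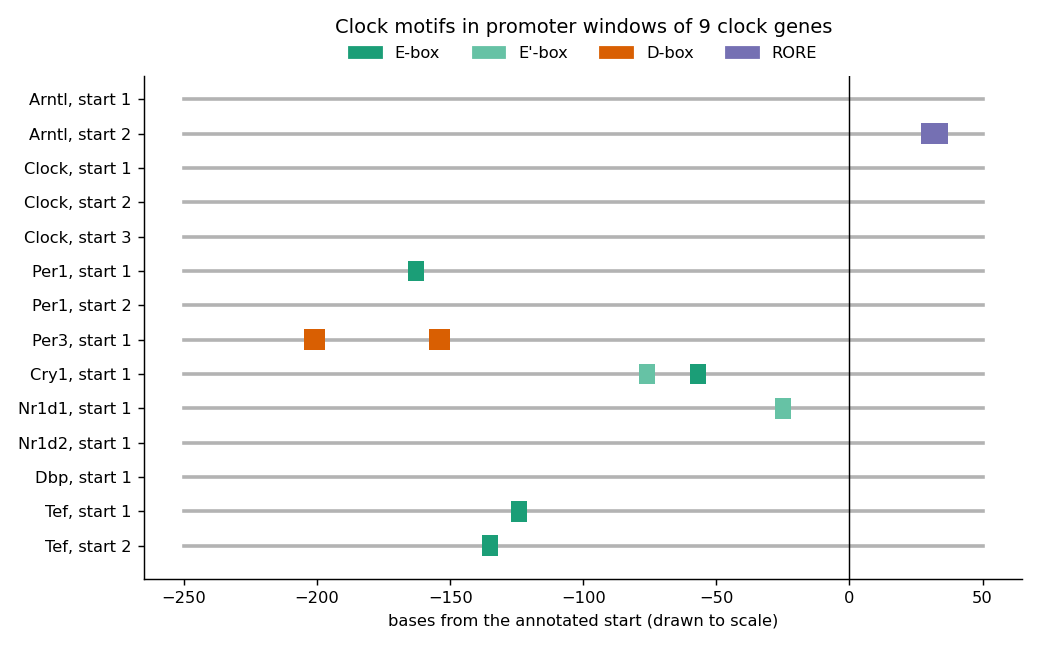
Matches to 4 clock motifs in the 14 promoter windows of 9 clock genes, in bases from the annotated start and drawn to scale, with 1 line for each window. Boxes mark matches on either strand. The 2 D-boxes of Per3 lie upstream of the start, and the RORE of Arntl lies between 27 and 36, inside the transcribed part.

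Values are FPKM, fragments of a gene scaled to its exon length and to all fragments of the sample, as deposited. The recovered depth was 14199902 to 17561584 fragments a sample, and the 10 genes took between 146 and 8604 fragments each in any sample. Differences were tested on log2(FPKM + 1) with limma over all 32 samples and 22071 genes. A gene is called where the Benjamini-Hochberg adjusted p is under 0.05 and the change at least 1.5-fold, and fold changes on this scale understate those of genes with low FPKM. Mitochondrial genes took 6.69% to 18.2% of the fragments, most at 0 d, and the median log2 change of the 11943 genes averaging 1 FPKM or more was 0.12 at 1 d and up to 0.32 at 14 d, so small rises are to be read against that shift. With median-ratio scaling between samples these medians lay between -0.02 and 0.03. A single 3 d sample stood apart on the first principal component, at -18.5 against 1.15 to 6.40 for the other 3 samples of that day, and the 3 d results of the called clock genes are also given without it. The 6 muscle fibre markers summed to 21270 to 41070 FPKM in every sample, and the 6 retina markers, checked because the labels' extraction text names retinas, to at most 0.528.

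Differences among the 8 time points passed the moderated F test for all 10 genes, with limma adjusted p from 1.38e-16 (Dbp) to 0.00032 (Cry1). In all, 63.2% of the tested genes passed it. Against 0 d, 5 of the 10 clock genes were called at 1 d, where 8.84% of all tested genes were called. Arntl, Clock and Per1 rose at 1 d (6.34% of all genes did) and Per3 and Dbp fell (2.49%). At 3 d 6 were called, with or without the sample that stood apart, beside 19.3% of all genes. Arntl, Clock, Per1 and Per2 were higher then (13.2% of all genes were) and Dbp and Nr1d1 lower (6.03%). The set gave 3 calls at 5 d (18.8% of all genes), 3 by 7 d (19.5%), 3 by 14 d (18.5%), 2 by 21 d (15.7%) and 3 by 28 d (18.3%). From 5 d on, at 20% to 30% of the set, these counts lay near the share of all genes. The ranges of 7 of the 10 genes at 1 d did not overlap those at 0 d, a separation seen in 28.5% of all tested genes, and 9 of the 10 were separated at 3 d (35.3%).

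**Figure D2:**
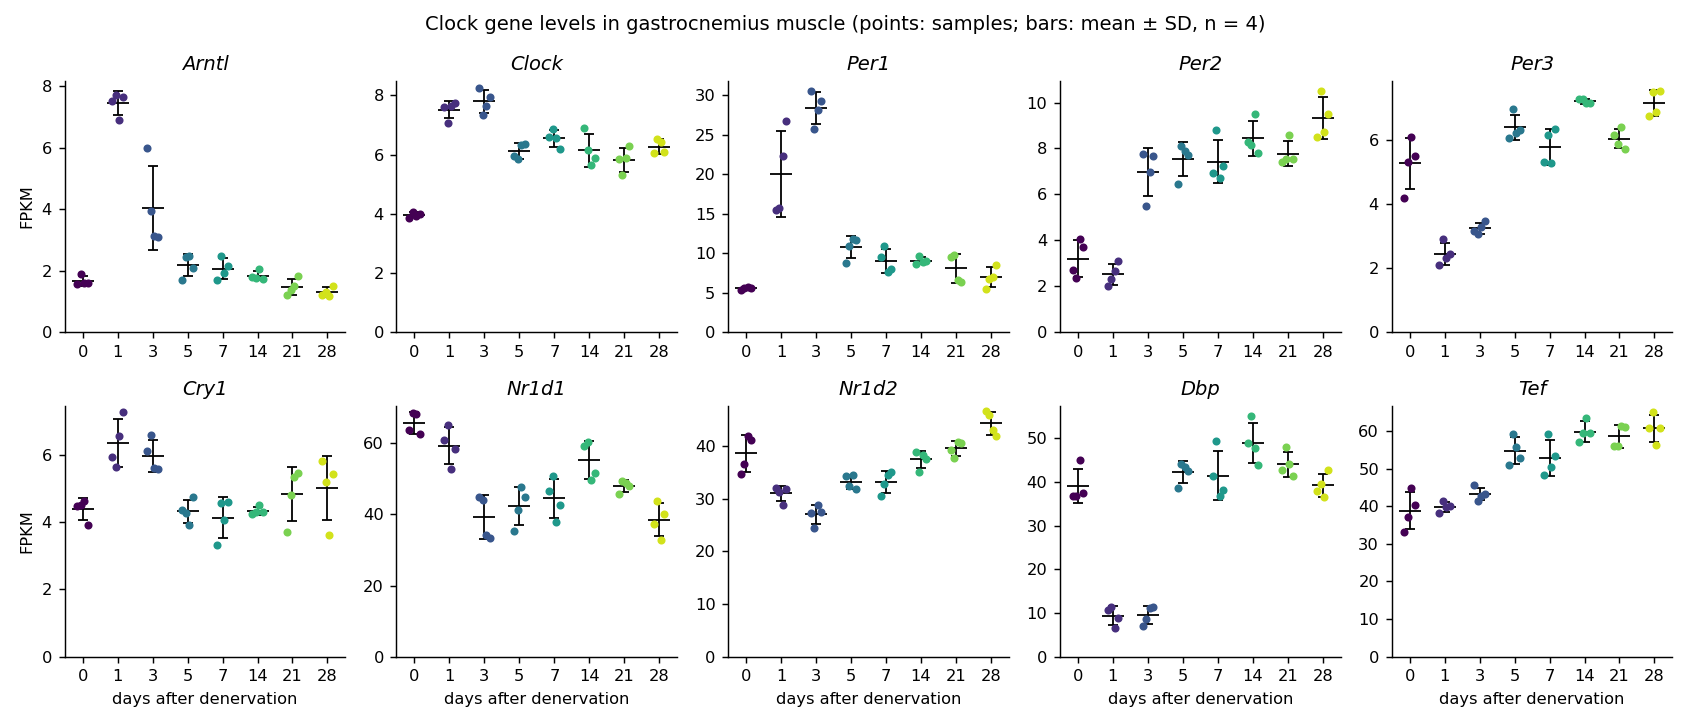
FPKM of the 10 clock genes by day post denervation, 1 panel a gene, with each axis starting at 0. Points are samples, and bars give the mean ± SD (n = 4). Arntl is highest at 1 d (6.88 to 7.72), Dbp lowest at 1 d and 3 d (6.59 to 11.3), and Per2 higher in every sample from 3 d on than at 0 d.

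Of the activating pair, Arntl (ENSMUSG00000055116; chromosome 7, 113207465 to 113314126, plus strand, GRCm38) was the gene with the lowest FPKM of the set at 0 d. Its 4 control samples held 1.58, 1.89, 1.59 and 1.61 FPKM. At 1 d they held 7.53, 7.72, 6.88 and 7.66, and at 3 d 5.99, 3.94, 3.12 and 3.10. Every sample of 1 d lay above every sample of 3 d, and every sample of 3 d above every sample of 0 d. The sample at 5.99 was the one that stood apart on the first principal component. The mean rose 4.47-fold at 1 d, from 1.67 ± 0.149 to 7.44 ± 0.385 (SD, n = 4), a log2 change of 1.66 (standard error 0.12, limma adjusted p = 7.22e-12). The log2 change at 3 d was still 0.88 (limma adjusted p = 3.85e-07), and without the sample that stood apart 0.71 (limma adjusted p = 4.59e-07). Arntl fell between 1 d and 3 d by 0.78 and between 3 d and 5 d by 0.64 on the log2 scale. The second of these calls was lost without the 3 d sample at 5.99 (-0.47, limma adjusted p = 0.000673) and without the 5 d sample at 1.70 (-0.56, limma adjusted p = 0.00149), where the change stayed under 1.5-fold. From 5 d on Arntl was not called against 0 d. Its means then ran 2.18, 2.06, 1.83, 1.47 and 1.30 FPKM, each day overlapping the next. The 28 d samples, at 1.17 to 1.51, lay below the 0 d range without passing the test.

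Clock (ENSMUSG00000029238; chromosome 5, 76209868 to 76304792, minus strand) encodes the partner of BMAL1. The controls held 3.85, 4.05, 3.94 and 4.00 FPKM, the 1 d samples 7.62, 7.08, 7.63 and 7.73, and the 3 d samples 8.27, 7.33, 7.66 and 7.94. Levels at 1 d and 3 d overlapped each other and lay far above the controls, with log2 changes of 0.78 and 0.83 (standard error 0.05 each, limma adjusted p = 2.86e-12 and 1.88e-13), the second being 0.80 without the sample that stood apart. Unlike Arntl, whose range overlapped that of 0 d again by 5 d, Clock held 5.31 FPKM or more in every sample from 5 d to 28 d, so each of those days stayed clear of the 0 d range. Only 7 d was called among them, at a log2 change of 0.61 (limma adjusted p = 1.41e-10). With median-ratio scaling that change was 0.29 and no longer 1.5-fold, while the calls at 1 d and 3 d held. On the other days from 5 d on the log2 changes were 0.46 to 0.55 as deposited and 0.19 to 0.24 with median-ratio scaling, and the 7 d call was also lost with quantile normalization (0.29). With TPM Clock was called on every day from 5 d on, and with a pseudocount of 0.1 at 5, 14 and 28 d as well as 7 d.

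The Per genes encode the repressors that close the loop, and the 3 of them followed different courses. Per1 (ENSMUSG00000020893; chromosome 11, 69095217 to 69109960, plus strand) held 5.37, 5.53, 5.71 and 5.59 FPKM at 0 d. At 1 d it held 15.5, 15.7, 22.2 and 26.7, and at 3 d 30.5, 25.7, 28.04 and 29.2. The 1 d samples were split, with a pair under 16 and a pair above 22, whereas the 3 d samples lay close together and overlapped 1 d at its highest sample. The mean was 3.61-fold the control at 1 d (log2 change 1.65, standard error 0.15, limma adjusted p = 5.23e-10) and 5.11-fold at 3 d (2.16, limma adjusted p = 5.29e-13). Without the 3 d sample that stood apart the 3 d change was 2.13. Per1 then fell by 1.33 on the log2 scale between 3 d and 5 d (limma adjusted p = 8.26e-08), to 10.8 ± 1.42 FPKM. It was still called at 5, 7 and 14 d, with log2 changes of 0.83, 0.60 and 0.61, but with median-ratio scaling these were 0.49, 0.27 and 0.27 and were not called. The 7 d call was also lost without its sample at 9.56 FPKM (0.57) or the one at 10.96 (0.51).

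Per2 (ENSMUSG00000055866; chromosome 1, 91415982 to 91459324, minus strand) did not share the early rise of Per1. The controls held 2.70, 2.35, 4.04 and 3.69 FPKM and the 1 d samples 2.00, 2.31, 2.66 and 3.09, which overlap. At 3 d Per2 held 7.76, 5.50, 6.95 and 7.66, above all 8 earlier samples. It rose by 1.18 on the log2 scale between 1 d and 3 d (standard error 0.12, limma adjusted p = 3.48e-09). The rise was kept: every sample from 5 d to 28 d held 6.44 FPKM or more, and Per2 was called against 0 d on each of the 6 days from 3 d on, at log2 changes of 0.94, 1.04, 1.02, 1.19, 1.08 and 1.31. At 28 d the mean was 9.31 ± 0.913 FPKM, 2.91-fold the control (limma adjusted p = 2.28e-10). These 6 calls held with median-ratio scaling, at log2 changes of 0.72 to 1.00, and the 3 d change without the sample that stood apart was 0.89. Within each sample, and so free of the scaling between samples, the log2 ratio of Per1 to Per2 was 0.50 to 1.24 at 0 d, 2.77 to 3.11 at 1 d, 1.93 to 2.22 at 3 d and -0.64 to -0.16 at 28 d. The early and late ranges lay on opposite sides of the 0 d range.

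Per3 (ENSMUSG00000028957; chromosome 4, 151003652 to 151044665, minus strand), the D-box carrier above, moved the other way. It held 4.19, 5.29, 6.08 and 5.48 FPKM at 0 d, 2.104, 2.92, 2.32 and 2.43 at 1 d and 3.16, 3.05, 3.29 and 3.45 at 3 d. All 8 samples of 1 d and 3 d lay below the lowest control, and 1 d lay below 3 d. The fall at 1 d, to 0.464 of the control mean, was called (log2 change -0.86, standard error 0.08, limma adjusted p = 5.42e-10). At 3 d the log2 change of -0.56 was just under 1.5-fold, and it reached the threshold with median-ratio scaling (-0.76) and without the control at 4.19 FPKM (-0.64). Per3 rose again by 0.80 between 3 d and 5 d (limma adjusted p = 7.75e-09), to 6.38 ± 0.394 FPKM, and held 5.29 to 7.52 from 5 d to 28 d. Its samples at 14 d (7.13 to 7.26) and 28 d (6.74 to 7.52) lay above the highest control, without a call. With TPM Per3 was called higher on both days, at log2 changes of 0.63 and 0.59. Over all settings these changes were as low as 0.06 on either day. Cry1 (ENSMUSG00000020038; chromosome 10, 85131700 to 85185064, minus strand), the cryptochrome of the set and a partner of the PER proteins, was not called on any day, save at 1 d with TPM (log2 change 0.60). Its samples at 1 d held 5.93, 5.64, 6.56 and 7.25 FPKM and at 3 d 6.10, 6.57, 5.59 and 5.57, all above the highest control at 4.63. From 5 d on its means were 4.13 to 5.01 FPKM, beside a control mean of 4.39 ± 0.316.

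At 0 d Nr1d1 had the highest FPKM of the set, at 65.7 ± 3.03, followed by Dbp, Tef and Nr1d2 at 39.1, 38.8 and 38.6, whose ranges overlapped. Nr1d1 (ENSMUSG00000020889; chromosome 11, 98767932 to 98775333, minus strand) encodes REV-ERBα. It held 63.7, 68.4, 68.2 and 62.5 FPKM at 0 d, 60.8, 65.2, 52.9 and 58.4 at 1 d, and 45.0, 44.0, 34.1 and 33.5 at 3 d. The fall thus followed the first day: 1 d overlapped the controls, and 3 d lay below both. Nr1d1 was called lower at 3 d (log2 change -0.74, standard error 0.10, limma adjusted p = 7.22e-07; -0.81 without the sample that stood apart), at 5 d (-0.63) and at 28 d (-0.76, limma adjusted p = 5.13e-07). The 28 d samples held 37.4, 43.7, 32.8 and 40.01 FPKM. With median-ratio scaling all 6 days from 3 d on were called lower, at log2 changes of -1.14 to -0.64. The 5 d call was lost without the 5 d sample at 35.5 FPKM (-0.55), and with TPM (-0.45). The step from 1 d to 3 d, -0.60, was called, and it fell under 1.5-fold, to between -0.58 and -0.53, without the 1 d sample at 60.8 or 65.2 FPKM or the 3 d sample at 34.1 or 33.5. Exons of Nr1d1 share 263 bp with Thra on the opposite strand. Thra had a median of 7.20 FPKM, and reads in the shared part cannot be assigned to either gene if strand was not used in counting, which is not given in the sources used here.

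Nr1d2 (ENSMUSG00000021775; chromosome 14, 18204054 to 18239127, minus strand), which encodes REV-ERBβ, was not called on any day against 0 d. It held 34.7, 36.5, 41.9 and 41.2 FPKM in the controls, 32.0, 31.3, 28.9 and 31.9 at 1 d and 27.2, 24.5, 28.8 and 27.6 at 3 d, so both early days lay below the controls. With median-ratio scaling Nr1d2 was called lower at 3 d (log2 change -0.73) and 5 d (-0.59). Its mean was 33.2 ± 1.33 FPKM at 5 d and 44.3 ± 2.20 at 28 d, where every sample held at least 41.9. Its 28 d mean was above that of 0 d as deposited and below it with median-ratio scaling (log2 change -0.18), without a call in either. Nr1d1 was low on both days, with a mean of 39.2 ± 6.19 FPKM at 3 d and 38.5 ± 4.60 at 28 d.

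Dbp (ENSMUSG00000059824; chromosome 7, 45705088 to 45710203, plus strand), a PAR bZIP activator and a direct target of the BMAL1 and CLOCK pair, had the largest F of the set. The controls held 36.9, 36.9, 45.1 and 37.5 FPKM. At 1 d Dbp held 10.8, 11.3, 6.59 and 8.88, and at 3 d 6.98, 8.65, 11.1 and 11.3. The 1 d and 3 d samples overlapped each other and were all under 12 FPKM, while every other sample of the series held at least 36.5. The fall was to 0.240 of the control mean at 1 d (log2 change -1.97, standard error 0.13, limma adjusted p = 1.17e-12) and to 0.244 at 3 d (-1.95, limma adjusted p = 2.82e-13; -1.82 without the sample that stood apart). Between 3 d and 5 d Dbp rose 4.43-fold (log2 change 2.06, limma adjusted p = 2.69e-12), to 38.5, 44.2, 43.5 and 42.5 FPKM. From then on it was not called against 0 d on any day. Exons of Dbp share 539 bp with Sphk2 on the opposite strand, whose median was 3.02 FPKM.

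Tef (ENSMUSG00000022389; chromosome 15, 81802421 to 81826863, plus strand), the other PAR bZIP gene of the set, did not follow Dbp. It held 33.0, 37.1, 44.8 and 40.3 FPKM at 0 d, 38.3, 41.5, 39.7 and 40.2 at 1 d and 45.5, 41.4, 42.7 and 43.3 at 3 d. These 3 ranges overlapped one another. From 5 d on every sample held at least 48.3 FPKM, above the highest control. Tef was called higher at 14, 21 and 28 d, at log2 changes of 0.62, 0.59 and 0.64 (standard error 0.07 each, limma adjusted p = 2.22e-08, 6.21e-08 and 1.26e-08). These changes lay close to the 1.5-fold threshold. With median-ratio scaling they were 0.23, 0.29 and 0.26, with quantile normalization 0.37, 0.41 and 0.44, and none was called. With TPM Tef was called at 5 d and 7 d too (0.69 and 0.64). All 3 calls were also lost without the control sample at 33.0 FPKM, at 0.55, 0.52 and 0.57, and that of 21 d without the control at 37.1 or either of the 21 d samples at 61.1 and 61.4, where it was 0.57. Within each sample the log2 ratio of Tef to Dbp was -0.16 to 0.10 at 0 d, 1.83 to 2.59 at 1 d, 1.94 to 2.71 at 3 d and 0.11 to 0.72 from 5 d on. An antisense gene, Gm17597, shares 193 bp of exon with Tef and had a median of 0.109 FPKM.

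**Figure D3:**
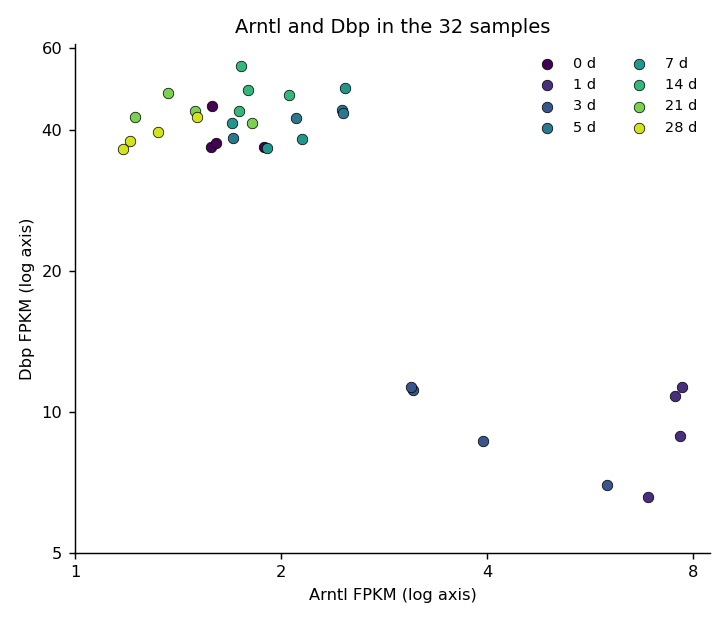
FPKM of Arntl (x) against Dbp (y) in each of the 32 samples, both on log axes and coloured by day. The 8 samples of 1 d and 3 d lie at the lower right, with Dbp at 6.59 to 11.3, and the other 24 at the upper left, with Dbp at 36.5 to 55.0.

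Arntl and Dbp, which a running clock keeps in opposite phase, were set against each other within each sample, where scaling between samples drops out. The log2 ratio of Arntl to Dbp was -4.55, -4.29, -4.83 and -4.55 in the controls. It was -0.52, -0.55, 0.06 and -0.21 at 1 d and -0.22, -1.13, -1.83 and -1.87 at 3 d. The 24 samples of 0 d and of 5 d to 28 d lay between -5.13 and -4.14, so the 8 early samples were clear of all others, and the 1 d and 3 d ranges overlapped through the 3 d sample that stood apart. The ratio of Arntl to Per2 lay above its 0 d range at 1 d, within it at 3 d alone and below it from 5 d on. It was -1.35 to -0.31 at 0 d, 1.31 to 1.92 at 1 d, -1.31 to -0.37 at 3 d and -2.99 to -1.68 from 5 d on.

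Neighbouring time points, which leave out the 0 d samples, were compared in turn. Of the 10 genes, 3 were called between 1 d and 3 d (Per2 higher, Arntl and Nr1d1 lower), beside 10.6% of all tested genes, 6.63% higher and 3.93% lower. Between 3 d and 5 d 4 were called (Dbp and Per3 higher, Per1 and Arntl lower), beside 5.76% of all genes, 3.72% higher and 2.05% lower. Without the sample that stood apart it was 3. No clock gene was called by limma between 5 d and 7 d (0.657% of all genes), 7 d and 14 d (0.634%), 14 d and 21 d (0.453%) or 21 d and 28 d (0.199%), and none with median-ratio scaling. At an unadjusted p under 0.05 these 4 steps held 0, 4, 1 and 3 of the 10 genes, none changed by 1.5-fold, and the adjusted p was under 0.05 for 1 of them, Per3 between 7 d and 14 d. With so few genes called over the whole table, a count of 0 in these steps lies at the background. Between 1 d and 28 d 7 of the 10 were called, beside 15% of all genes. Per2, Per3, Dbp and Tef were higher at 28 d, and Arntl, Per1 and Nr1d1 lower.

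The wider pathway was read from a list of 21 further clock genes, of which 20 passed the filter and Rorb, at 0.02 to 0.05 FPKM on average, did not. Against 0 d, 7 of the 20 were called at 1 d (4 higher, 3 lower), 8 at 3 d (6 higher, 2 lower) and 5 at 5 d (4 higher, 1 lower). It gave 5 calls on each of 7 d and 14 d and 3 on each of 21 d and 28 d. These counts are 35% of the 20 genes at 1 d, beside 8.84% of all tested genes, and 40% at 3 d, beside 19.3%. From 5 d on they are 15% to 25%, near the 15.7% to 19.5% of all genes, and the share of lower calls on these days grew with median-ratio scaling. The median log2 change of the list was 0.0084 at 1 d, against 0.03 for all tested genes, and 0.21 at 3 d, against 0.06. With median-ratio scaling 7 were called at each of 1 d and 3 d, 2 and 4 of them higher. From 5 d to 28 d that scaling gave 2 higher on each day, beside 3, 4, 3, 2 and 5 lower. Nfil3, the gene of the repressor E4BP4 that competes with DBP and TEF at D-boxes, changed most. It held 3.78, 3.04, 5.30 and 4.29 FPKM at 0 d and 35.4, 24.7, 44.9 and 43.3 at 1 d, with no overlap, a 9.04-fold difference of the means (log2 change 2.88, standard error 0.17, limma adjusted p = 1.44e-13). At 3 d it had come down to 5.79 to 10.5 FPKM, still called at a log2 change of 0.63, which was 0.45 and not called with median-ratio scaling and lost as well with quantile normalization (0.41), without the 3 d sample at 10.5 FPKM (0.45) and without the control at 3.04 (0.53). Hlf, the remaining PAR bZIP gene, held 4.32 ± 0.552 FPKM at 0 d and 1.81 ± 0.197 at 3 d. Its 1 d samples, at 2.34 to 3.05 FPKM, already lay below the controls at 3.62 to 4.90, without a call as deposited. With median-ratio scaling Hlf was called lower at 1, 5, 7 and 14 d too (-0.72, -0.76, -0.82 and -0.60). The same days were gained with quantile normalization, and 1 d and 7 d with a pseudocount of 0.1.

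Among the other repressors, Cry2 rose at 1 d from 6.86, 7.25, 7.85 and 6.86 to 17.3, 15.4, 21.8 and 21.1 FPKM (log2 change 1.27, limma adjusted p = 1.02e-09), with no overlap. Bhlhe41 (DEC2), which represses through E-boxes, fell from 7.00, 7.73, 8.18 and 7.36 to 2.09, 2.04, 2.03 and 2.34 FPKM at 1 d (log2 change -1.45, limma adjusted p = 1.33e-12) and was called lower through 14 d, where the change of -0.62 was -0.55 and not called without the 14 d sample at 3.87 FPKM, -0.58 without the control at 8.18 and -0.49 with TPM. With median-ratio scaling Bhlhe41 was called lower at 21 d and 28 d too (-0.78 and -0.87), as with quantile normalization (-0.75 and -0.85), and at 28 d with a pseudocount of 0.1 (-0.61). Cry2 and Bhlhe41 thus moved in opposite directions on the same day. Rora, the gene of an activator that opposes REV-ERB at ROREs, was called higher at 1, 3 and 5 d, with means of 17.6 ± 1.42, 19.7 ± 2.59 and 16.6 ± 1.99 FPKM on those days beside 10.5 ± 2.13 in the controls. Its calls at 1 d and 5 d were lost with median-ratio scaling (0.54 and 0.26), and all 3 with quantile normalization (0.56, 0.55 and 0.27). The 5 d call was also lost without either of 2 controls or either of 2 samples of 5 d, at 0.54 to 0.58. Of the outputs, Wee1, a kinase gene of the cell cycle driven through E-boxes, held 2.04 ± 0.232 FPKM at 0 d, 1.15 ± 0.338 at 1 d and 9.26 ± 0.815 at 28 d. It was called higher on each of the 6 days from 3 d on, as Per2 was. Usp2, a deubiquitinase gene, fell at 1 d from 32.6 ± 3.99 to 16.8 ± 1.49 FPKM and was 37.5 ± 2.14 at 3 d. Tspan4, a tetraspanin gene, was called higher from 3 d to 28 d, and Nampt, the gene of an NAD-producing enzyme, lower at 14, 21 and 28 d, the first and last of these not with TPM (-0.46 and -0.53).

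**Figure D4:**
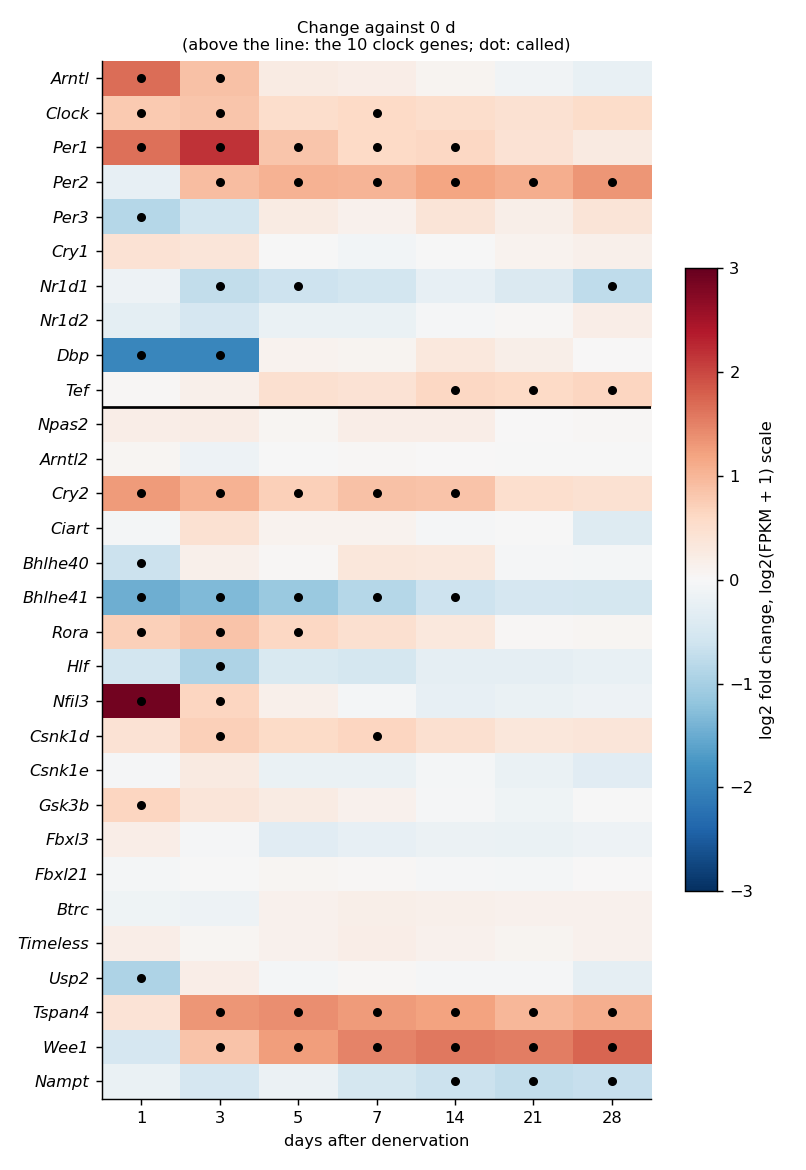
Log2 change against 0 d on the log2(FPKM + 1) scale of the 10 clock genes (above the line) and the 20 tested genes of the wider list, by day post denervation. Red is higher and blue is lower, and dots mark genes called at an adjusted p under 0.05 and 1.5-fold. Dots of Arntl and Dbp lie at 1 d and 3 d and that of Per3 at 1 d, and those of Per2, Wee1 and Tspan4 run from 3 d to 28 d.

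Per1 is also a direct target of the glucocorticoid receptor, so 5 glucocorticoid-responsive genes were read beside it. At 1 d 4 of the 5 were called higher, and again 4 at 3 d, with none lower on either day, where 6.34% and 13.2% of all tested genes were called higher. Fkbp5, an inhibitor of the receptor that the receptor itself induces, held 2.76, 2.65, 4.05 and 3.09 FPKM at 0 d, 21.2, 21.4, 23.6 and 24.5 at 1 d and 20.1, 24.8, 12.4 and 11.2 at 3 d. By 5 d it was back at 2.68 to 3.47. The 8 early samples lay clear of the controls (log2 change 2.53 at 1 d, limma adjusted p = 8.79e-13, and 2.07 at 3 d, limma adjusted p = 1.12e-11, or 1.98 without the sample that stood apart). Tsc22d3, the gene of GILZ, held 28.2 to 34.1 FPKM in the controls, 74.1 to 89.3 a day later and 108 to 127 at 3 d, and its 3 d mean, like that of Per1, lay above its 1 d mean. Klf9 rose at 1 d from 54.0 ± 4.24 to 106 ± 9.07 FPKM and was 52.8 ± 2.67 at 3 d, then fell to 32.3 ± 1.49 at 5 d and was called lower at 5, 7, 21 and 28 d. Each of these 4 later calls was lost with TPM, at -0.54 to -0.45, and those of 7, 21 and 28 d also without single samples, at -0.58 to -0.54. The list thus had 2 genes higher and 2 lower at 5 d and at 7 d, 1 of each at 14 d and 2 lower at 21 d and 28 d. On these days 15.7% to 19.5% of all tested genes were called in either direction. With median-ratio scaling 1 was higher and 2 lower at 7 d and at 14 d: Tsc22d3 was not called at 7 d (0.38), and Klf9 was called lower at 14 d (-0.74). With TPM Tsc22d3 was called higher at 14 d and 21 d (0.66 and 0.67) and Sgk1 at 21 d (0.59). Zbtb16 was called higher at 1 d and 3 d, the second call being lost without the 3 d sample that stood apart (log2 change 0.48), without the next highest (0.49), without the control at 8.65 FPKM (0.54), with median-ratio scaling (0.42), with quantile normalization (0.32) and in a fit of 3 d with 0 d alone (limma adjusted p = 0.0572), and lower on each day from 5 d on, at 28 d not with TPM (-0.54) or without the control at 13.3 FPKM (-0.57). Sgk1 was called higher from 3 d to 14 d. Hormone levels were not measured in these data, and whether they bear on Per1 was not tested.

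**Figure D5:**
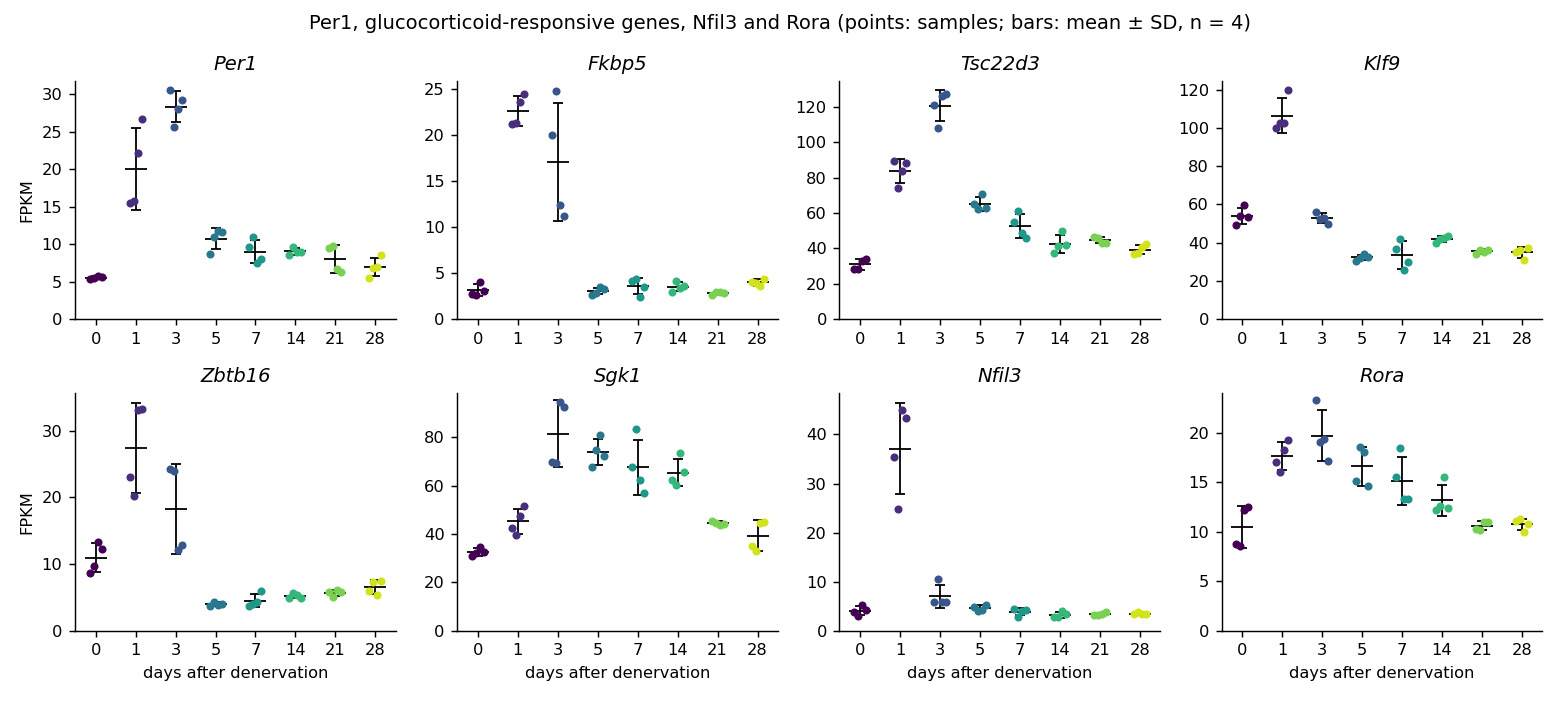
FPKM of Per1, of 5 glucocorticoid-responsive genes, and of Nfil3 and Rora by day post denervation, with each axis starting at 0. Points are samples, and bars give the mean ± SD (n = 4). Fkbp5 is above 11 in every sample of 1 d and 3 d and under 5 in all others.

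Cell markers moved over the same days. The 6 macrophage markers summed to 132 to 196 FPKM at 0 d, 205 to 311 at 1 d and 278 to 941 at 3 d, with the lowest 3 d value in the sample that stood apart. The 5 Schwann cell markers summed to 78.3 to 174 at 0 d, 19.6 to 113 at 1 d and 9.39 to 24.6 at 3 d, and stayed at or under 26.2 after that. The 6 muscle fibre markers summed to 38590 to 41070 at 0 d and 22700 to 26330 at 3 d. The 5 fibroblast markers summed to 388 to 515 at 0 d and 247 to 612 at 3 d, and the 5 endothelial markers to 81.5 to 93.1 and 47.4 to 66.4. No marker of these 5 lists was at 0 in all samples of a day. The highest single macrophage marker value was 139 FPKM at 0 d and 617 at 3 d, and the highest Schwann cell marker value 130.5 at 0 d. The sums thus weigh single markers heavily and do not show that all markers of a list moved alike. Fewer cells of a type and less RNA per cell cannot be told apart in whole muscle, and the part of cell makeup in the clock gene results was not tested.

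Muscles of the same day were then compared with each other, to describe how Arntl varied beside the other clock genes within days. Deviations of log2(FPKM + 1) from the mean of each day were correlated over the 32 samples, with samples permuted within days (100000 resamples, two-sided) and p adjusted over 9 pairs. Arntl and Dbp gave r = -0.22 (permutation p = 0.488, adjusted p = 0.628) and rho = 0.08 (permutation p = 0.722, adjusted p = 0.928). Arntl and Nr1d1 gave r = 0.59 (permutation p = 0.00605, adjusted p = 0.0272) and rho = 0.60 (permutation p = 0.00391, adjusted p = 0.0176). Arntl and Tef gave r = 0.45 (permutation p = 0.003, adjusted p = 0.027) and rho = 0.60 (permutation p = 0.00121, adjusted p = 0.0109). With the 2 samples most distant from the median Arntl deviation left out, both of 3 d, r was 0.22 for Dbp (permutation p = 0.256), 0.52 for Nr1d1 (permutation p = 0.0241) and 0.50 for Tef (permutation p = 0.00978). Nr1d1 and Tef thus deviated in the same direction as Arntl within days. Neither adjusted p held throughout when whole days were left out. That of Nr1d1 was lost without the samples of 1, 3, 5, 7 or 28 d, with the lowest r at 0.46 without 3 d (adjusted p = 0.128). That of Tef was lost without 3, 5 or 7 d, with the lowest r at 0.36 without 7 d (adjusted p = 0.103). The other 6 pairs had adjusted p between 0.1 and 0.991 for r. Correlations within days cannot show differences in hour between days, and the part of the hour of sampling was not tested.

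The genes whose levels over the 32 samples were most like those of Arntl, among 11941 averaging 1 FPKM or more, were Gucd1 (r = 0.975), Pde4b (0.963), Pde4d (0.953), Slc25a25 (0.948) and Zcchc2 (0.945). Pde4b and Pde4d encode phosphodiesterases that break down cAMP. The genes outside the set most like Dbp were Prkag3 (r = 0.933), a subunit gene of the energy sensor AMPK in fast muscle, Tmx2 (0.932), Enpp4 (0.932), Gpr155 (0.927) and Smtn (0.923). Within the set, Per3 had r = 0.931 with Dbp, above the last 2 of these. These coefficients describe likeness of pattern over samples that fall into 8 days, and carry no test.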

How the data were processed

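The authors deposited FPKM values, 1 per gene and sample, for 33397 Ensembl mouse genes; the submitters' processing notes name CASAVA, HISAT2 2.1.0, DESeq2 and the build GRCm38. Per the study's methods, libraries were made with a VAHTS Universal V6 kit and read as paired ends. Columns name the day but no individual, and the columns of controls were taken as 0 d.

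Symbols came from GENCODE mouse release 21. Its merged exon lengths turned FPKM back into fragments for 33356 genes, and 99.2% to 99.3% of values under 200 fragments were whole within 0.01. Genes reaching 0.1 FPKM in 4 or more samples were tested on log2(FPKM + 1) with limma 3.58.1 in R 4.3.3 (lmFit, eBayes with a variance trend), with Benjamini-Hochberg adjustment over 22071 genes for each comparison. This fit was first tested on simulated data, where 160 of 200 planted 2-fold changes were called, with 1 false call. A gene that was not called may thus still have changed. Permutations ran in numpy 2.4.6 under Python 3.11.15 with ranks from scipy 1.17.1, tables in pandas 2.3.3 and plots in matplotlib 3.10.9. Promoter windows came from RefSeq. A gene of the wider clock list is not reported here.

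The rule for the 10 clock genes uses symbols alone, but the set, the wider lists, the marker lists and the tests were chosen with earlier results of these data known. All genes of these lists could be named, along with the 5 genes outside the set of 10 most like Arntl and the 5 most like Dbp. The study's text calls the samples of an analysis biologically independent, whereas the labels do not tie them to single mice. P-values measure the spread between these samples. Alternatives were another pseudocount, 2 other filters, TPM in place of FPKM, median-ratio or quantile scaling, no variance trend, a fit of each day with 0 d alone, and each sample left out. Leaving out samples in the comparisons between later days was added after the data were seen.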

Additional observations from a re-analysis of the deposited data

Results flagged for a closer look

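Among the 80 sets of 4 samples formed by 10 genes and 8 days, 5 held a sample far from the other 3 (Dixon's ratio of the gap to the range), and chance marks about 1 in 20 such sets. These were an Arntl value of 1.89 FPKM at 0 d and of 2.05 at 14 d, a Clock value of 7.08 at 1 d, a Per2 value of 8.60 at 21 d and a Dbp value of 45.1 at 0 d.

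For 7 of the 10 genes the change against 0 d differed between 1 d and 28 d, tested as 28 d against 1 d in the same limma fit at an adjusted p under 0.05 and 1.5-fold. In that comparison 15% of all tested genes were called. With median-ratio scaling 3 of the 10 clock genes were called higher and 3 lower. The difference, 28 d minus 1 d on the log2 scale, was -1.88 for Arntl, -1.38 for Per1, 1.56 for Per2, 1.25 for Per3, -0.61 for Nr1d1, 1.97 for Dbp and 0.59 for Tef. Per1 was above its 0 d mean and Per2 below its own at 1 d, and at 28 d Per2 was above. Per1 was not called against 0 d at 28 d, and its change there was positive as deposited and negative with median-ratio scaling (-0.07). The Tef difference was 0.40 and under 1.5-fold with median-ratio scaling, and 0.57 without the 1 d sample at 38.3 FPKM and 0.56 without the 28 d sample at 65.1. That of Nr1d1 was -0.57 without the 1 d sample at 65.2 FPKM and -0.54 without the 28 d sample at 32.8, both under 1.5-fold. The hour of sampling cannot be told apart from the day in these differences.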

How the results depend on the processing

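No paired analysis was possible because the columns name the day but no replicate number that the labels share between days. Of the calls of the 10 clock genes none reversed in direction under any alternative. The 5 calls at 1 d held with each sample left out. Over the samples left out the count of clock genes called ranged from 1 to 2 at 21 d and that of all genes between 21 d and 28 d from 29 to 51. With a pseudocount of 0.1 the counts of all genes called against 0 d, from 1 d to 28 d, were 3621, 6847, 6934, 7267, 7138, 6057 and 7277 (1950, 4254, 4148, 4308, 4075, 3466 and 4049 in the report), with 4025 between 1 d and 3 d, 2646 between 3 d and 5 d, 221 between 7 d and 14 d and 5830 between 1 d and 28 d. With TPM they were 3278 at 1 d and 7107, 7418, 7569, 5675 and 7169 from 5 d to 28 d, and clock genes called were 5 at 14 d, 4 at 21 d and 5 at 28 d. With quantile normalization 1 clock gene was called at 14 d. Of 84 clock gene comparisons never called, the sign changed in 27 with median-ratio scaling. It changed in 16 of 29 of them with quantile normalization, in 4 of 29 with TPM, and in 34 of 672 fits with 1 sample left out. The within-day correlation with Arntl under median-ratio scaling was 0.46 for Per3 (permutation p = 0.0416, adjusted p over 9 pairs) and 0.56 for Cry1 (permutation p = 0.0152, adjusted), both then past the threshold, 0.50 for Nr1d2 and 0.0232 for Dbp, whose signs reversed. With whole days left out in turn it ran from 0.46 to 0.67 for Nr1d1, 0.36 to 0.63 for Tef, -0.37 to 0.35 for Dbp and -0.0685 to 0.13 for Nr1d2. The causes were not tested.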
